A study of Mus musculus with 51 samples.

Results

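*Cdx1*, *Cdx2*, *Cdx4*, *Gbx2* and *Nkx1-2*, a set of caudal-type and other homeobox genes of the posterior body axis, were followed through the differentiation of mouse embryonic stem (ES) cells to cardiac mesoderm. The 5 genes were taken by symbol from 9 tables of FPKM (fragments per kilobase of transcript, scaled to library size), each of which lists 24538 genes. They had been chosen by their FPKM in these same tables, so their levels are given as a description. RNA was sequenced from F1G4 wild-type (WT) cells as ES cell aggregates (day 0) and after 1, 2 and 3 days with 20 ng/ml Bmp4, with 2 samples a stage. *Eomes* knockout (KO) and *T* KO cells, each cut with paired Cas9 nickases around the promoter and exon 1 of the gene in F1G4 cells, and *Eomes*/*T* double KO (dKO) cells, derived from the *Eomes* KO, were sequenced on days 2 and 3. *Smad4* KO cells, from which Cre had removed a floxed exon 1, and WT cells of the same conditional line (strain 129S/SvEvxC57BL/6) were sequenced on days 1 and 2. All differentiated cells received Bmp4 from the start, the KO lines were expanded from single clones, and the labels give 1 sample for each KO line and day. Fibroblast feeder cells had been taken off before aggregation.

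The Cdx proteins are homeodomain transcription factors that activate trunk and tail Hox genes and keep the posterior growth zone of the embryo going. *Cdx2* is also the factor that specifies trophectoderm and, later, intestine. *Gbx2* marks the region behind the midbrain-hindbrain boundary, where it opposes *Otx2*, and is in addition a target of LIF/Stat3 signaling in naive ES cells. *Nkx1-2* is a repressor transcribed in the caudal lateral epiblast and in neuromesodermal progenitors. Wnt and Fgf signals hold these genes on in the posterior epiblast and the primitive streak, where *Eomes* and *T* (Brachyury) direct cells into mesoderm.

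In GRCm38 (mm10), *Cdx2* lies at 5:147300900-147307249 (minus strand, 3 exons), *Cdx4* at X:103321398-103330224 (plus, 3 exons), *Gbx2* at 1:89927962-89931176 (minus, 2 exons) and *Nkx1-2* at 7:132596239-132599637 (minus, 2 exons). Each has a single curated RefSeq transcript, of 2145, 1595, 2126 and 1903 bases in the same order. The 250 bases before the transcription start are printed 5′ to 3′ on the gene's own strand for the 3 members that reached the highest FPKM, with capitals for the letters GGCGCC, a GC-rich element bound by Smad proteins. They come from RefSeq (GRCm38.p6) and cover 5:147307250-147307499 for *Cdx2*, 1:89931177-89931426 for *Gbx2* and 7:132599638-132599887 for *Nkx1-2*.
Cdx2: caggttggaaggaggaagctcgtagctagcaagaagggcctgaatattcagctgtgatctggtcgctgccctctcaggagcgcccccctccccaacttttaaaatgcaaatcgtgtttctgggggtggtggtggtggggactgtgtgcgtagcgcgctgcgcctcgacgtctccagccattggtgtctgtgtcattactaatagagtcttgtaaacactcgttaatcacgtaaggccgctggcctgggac
Gbx2: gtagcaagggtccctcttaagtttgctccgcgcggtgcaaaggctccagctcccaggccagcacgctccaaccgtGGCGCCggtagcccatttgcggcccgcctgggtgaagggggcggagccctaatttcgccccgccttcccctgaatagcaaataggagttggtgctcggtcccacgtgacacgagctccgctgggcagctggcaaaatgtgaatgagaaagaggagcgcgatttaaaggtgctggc
Nkx1-2: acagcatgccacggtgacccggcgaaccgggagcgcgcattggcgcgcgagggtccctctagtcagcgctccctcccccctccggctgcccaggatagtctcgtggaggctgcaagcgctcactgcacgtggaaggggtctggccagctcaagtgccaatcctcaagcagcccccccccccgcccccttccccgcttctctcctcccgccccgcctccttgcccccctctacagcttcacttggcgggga

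Windows from 250 bases before to 50 after the start were found for 4 of the 5 members and searched on both strands. GGCGCC, which reads the same on either strand, was found in *Gbx2*, 175 bases before the start and again at its first base. Of all 32851 such windows, 11.9% hold it. The T-box element GGTGTGA (3.98% of all windows), the Tcf/Lef element CTTTGAT (3.73%) and the Cdx element TTTATGG (2.75%) were found in none of the 4. The 250 bases held 69.6% G and C in *Nkx1-2*, 61.6% in *Gbx2*, 55.2% in *Cdx2* and 48.4% in *Cdx4*, where the median of all windows was 52.4%. CpG occurred 19 times in the *Nkx1-2* window and 18 times in that of *Gbx2*, and those of *Cdx2*, *Cdx4* and the median gene held 13, 5 and 6.

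Each table gives a single FPKM per gene and condition, but the values carry the fragment counts behind them. For a gene with 1 transcript, FPKM multiplied by transcript length is a whole multiple of what 1 fragment is worth in that column. In the 8 KO columns and the WT columns of the *Smad4* line, 91.7% to 92.5% of such genes with fewer than 50 fragments lay within 0.05 of a whole number on a single scale, the pattern of 1 library each. The labels also give 1 sample for each of them, whereas legends of the study describe KO values as averages of replicates, and this difference could not be settled here. The WT columns of F1G4 cells fell on the sums of 2 scales, as averages of 2 libraries do. As day 2 and day 3 WT cells appear in 4 tables with slightly different scaling, the pair of counts behind each value could be solved, and 13642 of 15586 single-transcript genes on day 2 and 13684 on day 3 had exactly 1 solution. On day 3, a single table left 2 or 3 possible pairs for *Cdx2* and 2 to 12 for *Nkx1-2*, some of them with the larger count in the other library, and all 4 tables together left 1 pair for each. The library with the smaller FPKM per fragment is called the deeper one here. Per kilobase of transcript, 1 fragment was worth 0.0344 to 0.0388 FPKM in the deeper and 0.0378 to 0.0459 FPKM in the shallower WT libraries on the time-course scale, and 0.0267 to 0.0553 FPKM in the libraries of the KO lines. Which library bears which replicate number is not known, nor whether the deeper libraries of different stages go together.

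**Figure D1:**
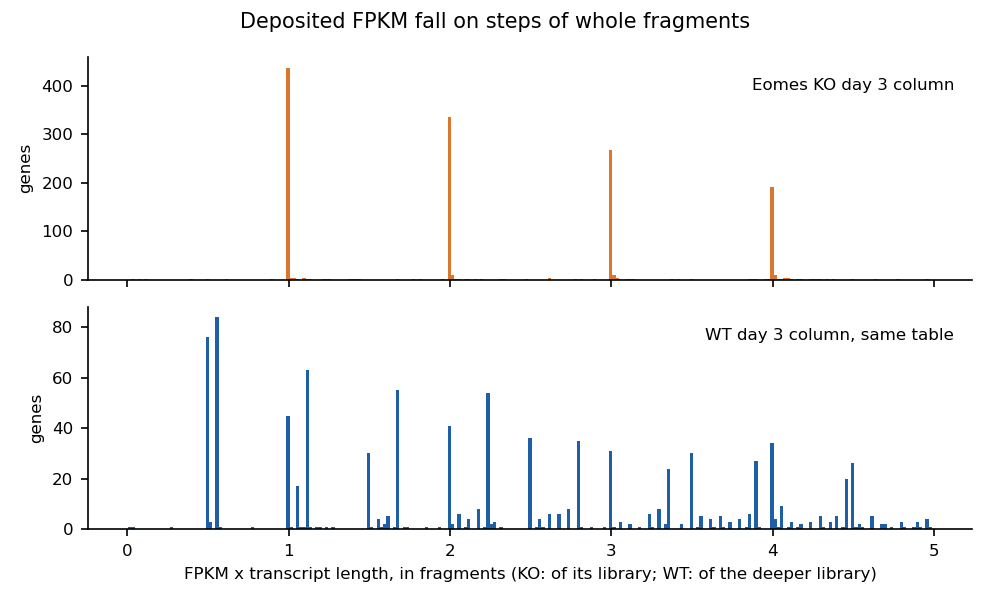
Number of single-transcript genes (y axis) by FPKM times transcript length, expressed in fragments (x axis), for the *Eomes* KO day 3 column (top) and the WT day 3 column of the same table (bottom). The KO values stand at whole numbers, those of 1 library, and the WT values on a double series that starts near 0.5, those of an average of 2 libraries of unequal depth.

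The targeted genes were checked first. *Eomes* stood at 9.42 FPKM in WT and 2.42 in the *Eomes* KO on day 2, against 20.3 and 0.276 a day later. *T* read 44.8 in WT and 6.64 in the *T* KO on day 2, against 323 and 3.00 a day later. In the dKO it read 2.77 and 1.93 on the respective days, and *Eomes* 1.24 and 0.346. *Smad4* itself cannot check its KO, since only exon 1 is deleted and FPKM over the whole gene was 33.8 in WT and 39.4 in KO on day 1. Nascent mesoderm was marked on WT day 3 by *Mesp1* (5.45), *Wnt3* (25.0) and *T* (320). Fragments of one gene are not independent of each other. Of the genes with 2 fragments in the pair of WT day 3 libraries together, 11.8% had 1 in each, and the shares at the other stages were 8.92% to 10.5%. The 95% intervals given with counts cover counting error only and are therefore too narrow. No test was made, as the members were chosen by these levels and 1 library stands for each KO condition. Differences are instead set beside the spread between WT libraries, which may be technical.

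In WT cells of F1G4, 4 of the 5 members stood higher on day 3 than on day 2 as averages. *Nkx1-2* was the only member above 1 FPKM in both libraries on day 2. It had 2 and 0 fragments in the deeper and shallower ES library, 5 and 34 on day 1 (0.102 and 0.765 FPKM), 141 and 68 on day 2 (2.69 and 1.44 FPKM) and 929 and 129 on day 3 (16.8 and 2.56 FPKM). Both day 2 libraries were above both of day 1, whereas the lower day 3 value lay inside the day 2 range. *Cdx2* had 0 and 12 fragments in ES cells, 37 and 20 on day 1 (0.670 and 0.399 FPKM), 22 and 46 on day 2 (0.372 and 0.862 FPKM) and 879 and 28 on day 3 (14.1 and 0.494 FPKM). Its libraries of days 1 and 2 overlapped, and so did the shallower day 3 library. *Cdx1* had 5 and 0 fragments in ES cells and 0 and 0 on day 1, where 3 fragments would have read 0.0666 and 0.0734 FPKM. It had 12 and 7 on day 2 (0.249 and 0.161 FPKM) and 87 and 23 on day 3 (1.71 and 0.497 FPKM), so that both day 3 libraries exceeded both of day 2. *Cdx4* was at most 0.389 FPKM on the time-course scale, with 9 and 11 fragments in ES cells, 0 and 0 on day 1, 11 and 6 on day 2 and 18 and 0 on day 3.

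*Gbx2* took another course. It was highest in ES cells, at 15.1 FPKM as an average that could not be divided between the libraries. It then had 37 and 49 fragments on day 1 (0.676 and 0.987 FPKM), 33 and 17 on day 2 (0.563 and 0.322 FPKM) and 461 and 23 on day 3 (7.47 and 0.409 FPKM). From ES cells to day 1 the average was 18.2-fold lower, and 5.84% of 11028 genes were called lower by the study's rule, which asks for FPKM above 1 in either group and a log2 ratio past 1. The 12 genes of a list of naive pluripotency genes were all called lower over the same interval, with a median log2 ratio of −3.29 against −0.05 over all tested genes. *Socs3*, a feedback target of Stat3, was among the 5 genes most like *Gbx2* over the 14 conditions on log2(FPKM + 1) (r = 0.767). It went from 29.4 to 0.805 FPKM. Among 11260 genes tested, 7.18% were called higher on day 2 than on day 1, and *Nkx1-2* was the only member among them (2.25 on the log2 scale). From ES cells to day 3, 3 members were called higher and *Gbx2* lower, where 18.5% and 12.6% of 11554 genes were.

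**Figure D2:**
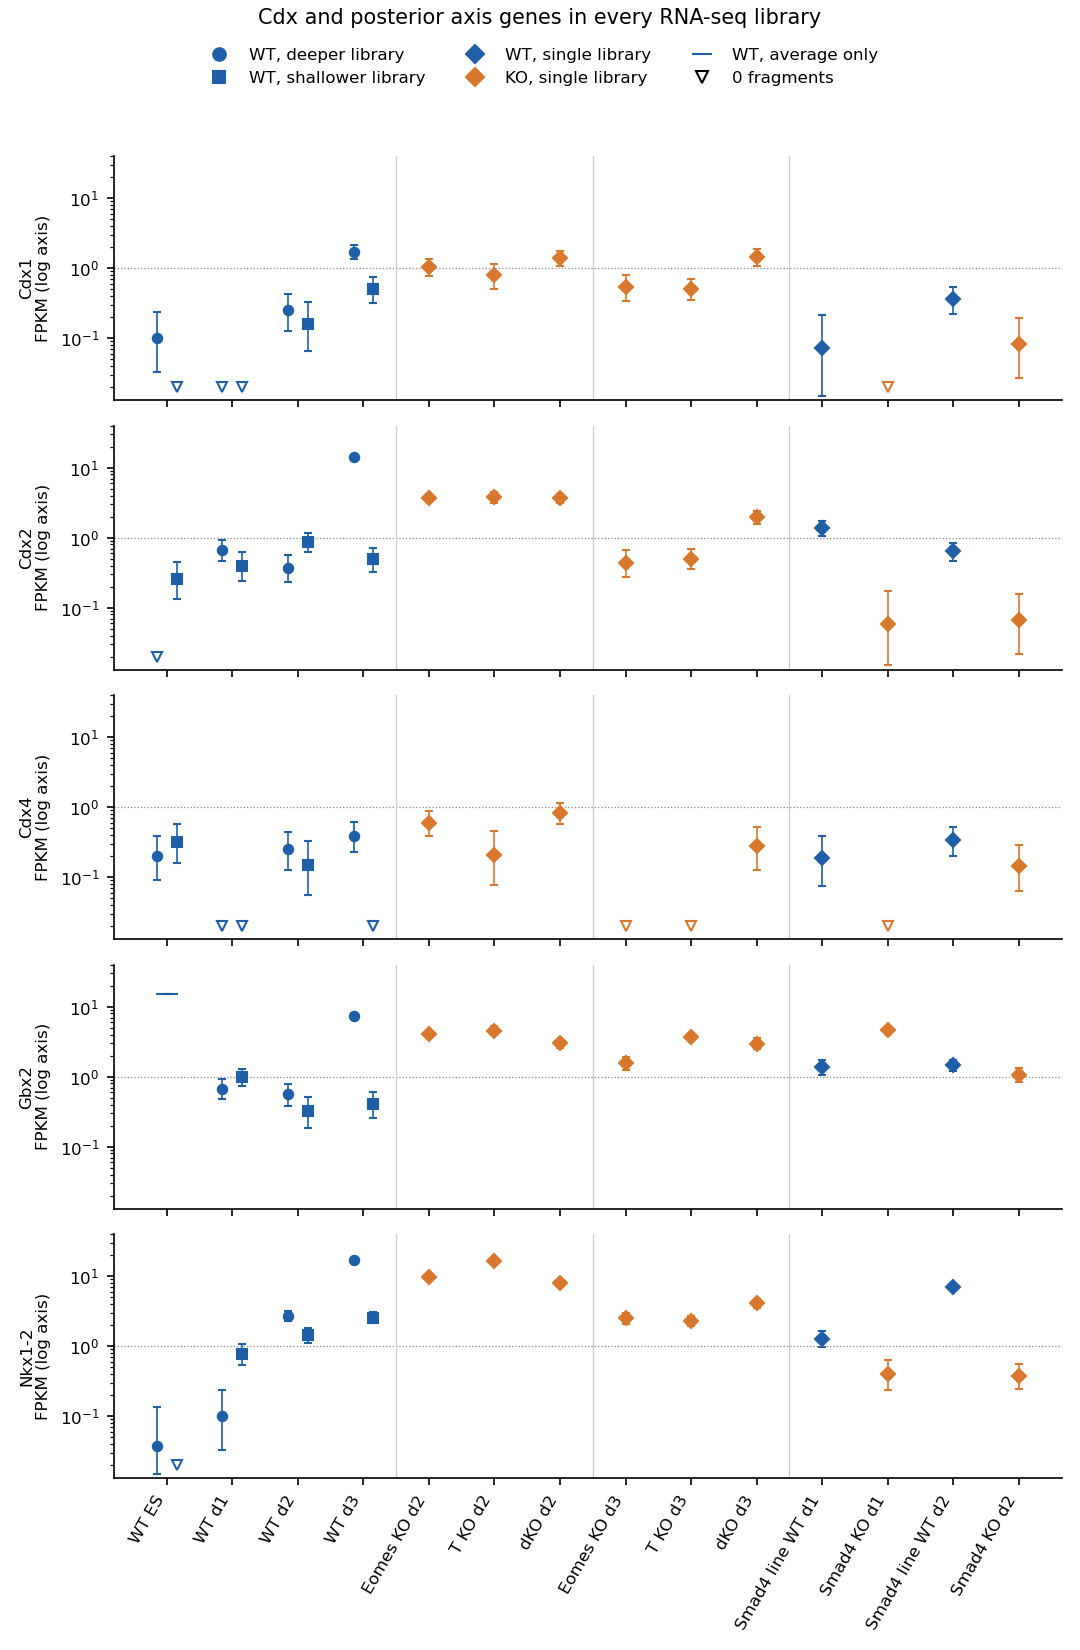
FPKM (log axis) of each gene in every RNA-seq library, with 95% counting intervals; WT libraries are blue, KO libraries orange, and open triangles mark 0 fragments. On day 3 the deeper and shallower WT libraries lie far apart for *Cdx2* (14.1 and 0.494), *Gbx2* (7.47 and 0.409) and *Nkx1-2* (16.8 and 2.56). On day 2 the *Eomes* KO, *T* KO and dKO libraries lie above both F1G4 WT libraries for these genes.

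A single library set the WT level of these genes on day 3. As averages, *Cdx2*, *Gbx2*, *Nkx1-2* and *Cdx1* were called higher on day 3 than on day 2, with log2 ratios of 3.57, 3.15, 2.23 and 2.43, where 6.14% of 11394 genes were called higher. Between the 2 WT libraries of day 3 itself the deeper one exceeded the shallower one 28.6-fold in *Cdx2*, 18.3-fold in *Gbx2*, 6.56-fold in *Nkx1-2* and 3.45-fold in *Cdx1*, and all 4 members with FPKM above 1 differed over 2-fold in this direction. Over all solved genes with FPKM above 1, 8.25% of 4257 were over 2-fold higher in the deeper library and 3.71% in the shallower one. Among the 500 genes nearest in level, only 1 differed as much as *Cdx2*, none as much as *Gbx2*, 3 as much as *Nkx1-2* and 50 as much as *Cdx1*, and the robust SD of the log2 ratio between the libraries was 0.53, 0.66, 0.50 and 0.91 in these groups of genes. On day 2 the WT libraries differed 1.55- to 2.32-fold in the 5 members, with *Cdx2* higher in the shallower library and the others in the deeper one. With the shallower day 3 library alone, no member was called against day 2, and *Cdx2* and *Gbx2* stood slightly below it (−0.32 and −0.11 on the log2 scale).

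The split followed some posterior genes and not others. In the deeper day 3 library *Sp5*, a direct Wnt target, had 23.0 FPKM against 2.33 in the shallower one, *Hoxb1* 4.61 against 0.801 and *Tbx6*, a factor of presomitic mesoderm, 1.37 against 0.110. *T* had 351 against 288, *Msgn1* 26.1 against 17.1, *Evx1* 5.69 against 4.15 and *Wnt3* 29.4 against 20.7, all within 2-fold. Of the 8 genes solved from a list of other posterior transcription factors, 2 of the 5 above FPKM 1 differed over 2-fold. Of the neural genes, *Olig2* was lower in the deeper library (1.68 against 6.05), while *Sox3* (2.60 against 2.01) and *Sox1* (0.384 against 0) were higher in it. Of 4 solved naive pluripotency genes above FPKM 1, *Klf2* (2.24 against 0.375) and *Klf4* (1.23 against 0.485) were over 2-fold higher in the deeper library. *Tfcp2l1* (2.72 against 2.39) and *Zfp42* (13.0 against 11.0) were within 2-fold. The trophoblast keratin *Krt7* had 61.0 against 31.8, *Esx1* 3.29 against 2.77 and *Ascl2* 1.37 against 2.13, and none of the 3 trophoblast markers above FPKM 1 differed over 2-fold. Short RNAs (transcripts of at most 300 bases) moved with the split. Of 56 above FPKM 1, 46 were over 2-fold higher in the deeper library and 1 in the shallower one, with a median log2 ratio of 2.69. Their part in the difference of the members was not tested.

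**Figure D3:**
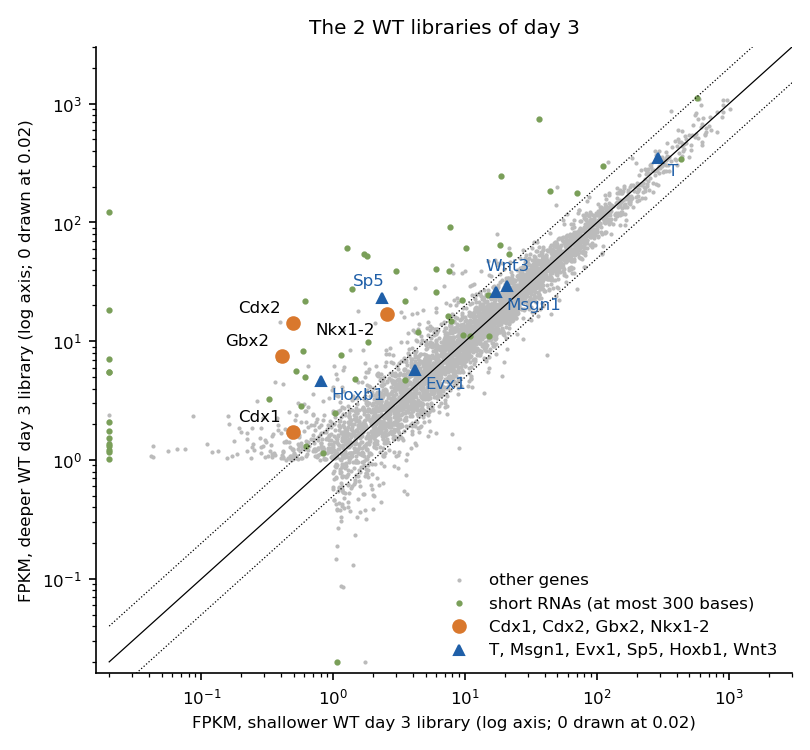
FPKM of genes with exactly 1 solution and FPKM above 1 in either WT day 3 library, the shallower library on the x axis and the deeper one on the y axis (both log axes, 0 drawn at 0.02); the solid line marks equal values and the dotted lines 2-fold differences. *Cdx2*, *Gbx2*, *Nkx1-2* and *Cdx1* lie above the upper dotted line, as do *Sp5*, *Hoxb1* and 46 of 56 short RNAs, while *T*, *Msgn1*, *Evx1* and *Wnt3* lie between the dotted lines.

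On day 2 *Cdx2*, *Gbx2* and *Nkx1-2* were higher in cells without *Eomes*, *T* or both. *Gbx2* was at 0.562 and 0.316 FPKM in the WT libraries, 4.02 in the *Eomes* KO (242 fragments, interval 3.53 to 4.56), 4.52 in the *T* KO (174 fragments) and 2.99 in the dKO (163 fragments). The KO values exceeded the higher WT library 7.15-, 7.71- and 5.34-fold. *Cdx2* was at 0.371 and 0.849 in WT, 3.65 in the *Eomes* KO (222 fragments, interval 3.19 to 4.17), 3.76 in the *T* KO (146 fragments) and 3.66 in the dKO (201 fragments), which is 4.27- to 4.32-fold above the higher WT library. The intervals of the 3 lines overlapped. *Nkx1-2* was at 2.68 and 1.41 in WT, 9.89 in the *Eomes* KO (533 fragments), 16.4 in the *T* KO (566 fragments) and 7.86 in the dKO (383 fragments), or 3.69-, 5.87- and 2.94-fold above the higher WT library. For *Nkx1-2* the *T* KO interval (15.1 to 17.8) lay above those of the other lines, whereas for *Gbx2* the intervals of both single KOs overlapped.

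*Cdx1* was at 0.248 and 0.158 FPKM in WT on day 2 and at 1.03 (51 fragments), 0.789 (25) and 1.38 (62) in cells lacking *Eomes*, *T* and both, above both WT libraries in each line. *Cdx4* stood at 0.598 in the *Eomes* KO and 0.832 in the dKO (27 and 34 fragments), above the WT libraries at 0.250 and 0.149, whereas its 0.208 in the *T* KO (6 fragments) lay between them. By the study's rule 4 of 5 members were called higher in the *Eomes* KO, 3 in the *T* KO and 4 in the dKO, where 3.35%, 5.7% and 3.48% of all tested genes were. The same members also stood over 2-fold above both WT libraries, as did 3.42%, 4.26% and 3.59% of the solved genes. Without a minimum fold or level, 5, 4 and 5 of the 5 members lay above both WT libraries, as did 36.4%, 39.6% and 40.2% of the solved genes. The 3 comparisons share their WT libraries. The summed FPKM of short RNAs was 2.32% of the WT total on day 2 and 5.74%, 3.43% and 6.71% in the 3 KO columns, and its part in these differences was not tested. Neural genes summed to 31.3 FPKM in WT on day 2 and 75.8, 79.0 and 62.2 in the 3 lines. Of 6, 5 and 6 tested, 4, 3 and 3 were called higher. *Sox2*, which also marks pluripotent cells, held most of each sum, at 21.5 in WT (time-course scale) and 51.6, 55.2 and 42.1. *Sox3* was not over 2-fold beyond both WT libraries in any line. *Olig2* (5.87 and 7.88 in WT) was below both in the *Eomes* KO (5.10) and dKO (4.29) and above both in the *T* KO (13.0). Trophoblast markers summed to 21.2 in WT and 12.2, 17.5 and 15.8. With the WT day 2 column of the *Smad4* line as reference, which held *Gbx2* at 1.46 and *Nkx1-2* at 6.97, the log2 ratios of *Nkx1-2* were 0.51 in the *Eomes* KO, 1.24 in the *T* KO and 0.17 in the dKO, so that its call was lost in the *Eomes* KO and dKO. Those of *Gbx2* were 1.47, 1.64 and 1.04.

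*Hoxb2* and *Hoxb1* stood higher than in WT on day 2 in all 3 lines, as *Cdx2*, *Gbx2* and *Nkx1-2* did. *Hoxb2* was at 0.178 FPKM in WT and at 4.94 in the *Eomes* KO, 2.17 in the *T* KO and 6.35 in the dKO. *Hoxb1* was at 0.0872 and 0 in the WT libraries and at 1.12 in the *Eomes* KO and 1.02 in the dKO. In the *T* KO it was at 0.692, below the FPKM minimum of the rule. Of 19 Hox genes of paralog groups 4 to 9, *Hoxa5* alone passed the FPKM minimum, in the *Eomes* KO (1.32 against 0.0633 in WT, called higher), and none of the 12 genes of groups 10 to 13 passed it in any of the 3 lines. The list of other posterior transcription factors had 0 called higher and 2 lower in the *Eomes* KO, 2 and 2 in the *T* KO, and 0 and 3 in the dKO, of 6 tested. In the *T* KO and dKO 1 of the genes called lower was *T*, the deleted gene. *Sp5* was at 0.606 and 0.521 in the *Eomes* KO and dKO, below both WT libraries (1.35 and 3.08), and at 8.77 in the *T* KO, above both. *Axin2*, a feedback inhibitor of Wnt signaling, was also lowest in the dKO (5.09) and *Eomes* KO (5.73) and highest in the *T* KO (22.5), with WT libraries of the *Eomes* KO table at 8.66 and 13.0.

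On day 3 the call of lower members rested on the deeper WT library. By averages, 4 members were called lower in the *Eomes* KO, 3 in the *T* KO and 2 in the dKO, where 9.01%, 3.92% and 5.53% of all tested genes were. In the WT libraries, values of which are from the *Eomes* KO table, *Cdx2* was at 14.6 and 0.520 FPKM. It was at 0.439 in the *Eomes* KO (23 fragments, interval 0.278 to 0.659), 0.498 in the *T* KO (40 fragments, interval 0.356 to 0.679) and 1.96 in the dKO (85 fragments, interval 1.56 to 2.42). The *Eomes* KO and *T* KO values were 0.845 and 0.997 times the shallower WT library, inside its counting interval, and the dKO was 3.79-fold above it. *Nkx1-2* was at 17.4 and 2.70 in WT and at 2.52, 2.30 and 4.10 in the 3 lines, which is 0.933, 0.887 and 1.53 times the shallower WT library. *Cdx1* was at 1.78 and 0.523 in WT and at 0.538, 0.504 and 1.44, with all 3 lines between the WT libraries in their own tables. *Gbx2* was at 7.74 and 0.431 in WT and at 1.56, 3.72 and 2.95, which is 3.62-, 8.98- and 6.90-fold above the shallower library and 0.202, 0.495 and 0.382 times the deeper one. *Cdx4* had 0 fragments in the *Eomes* KO and *T* KO, as in the shallower WT library, and 9 in the dKO. No member was over 2-fold below both WT libraries in any line, while 6.62%, 2.73% and 3.92% of the solved genes were. Without a minimum fold, 2 members lay below both WT libraries in the *Eomes* KO, 2 in the *T* KO and 0 in the dKO, as did 40.9%, 30.9% and 36.1% of the solved genes. Trophoblast markers, which accompany *Cdx2* in trophectoderm, summed to 68.0 FPKM in WT and 94.2, 112 and 135 in the 3 lines, and their part was not tested. *Krt7* held most of each sum, at 70.4, 78.6 and 113 in the lines and 63.3 and 33.5 in the WT libraries. It was not over 2-fold above both WT libraries in any line. Of 7 tested markers 1, 1 and 2 were called higher and 0 lower.

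**Figure D4:**
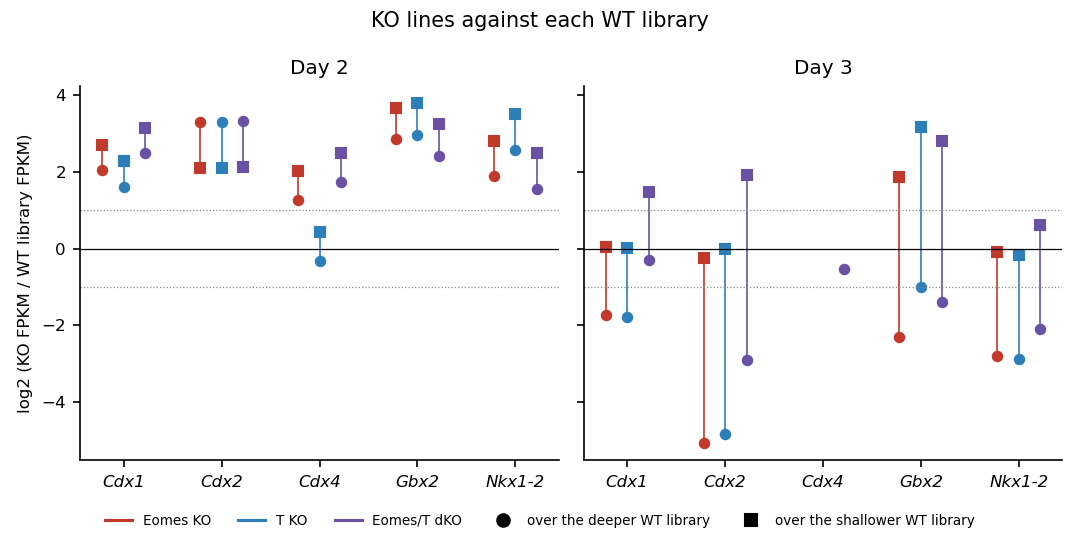
Log2 ratio of FPKM in the 3 lines lacking *Eomes*, *T* or both to each WT library of the same day, with circles for the deeper and squares for the shallower library and lines joining the pair; dotted lines mark 2-fold. On day 2 both ratios lie above 0 for each gene except *Cdx4* in the *T* KO, and on day 3 the pairs of *Cdx2*, *Gbx2* and *Nkx1-2* reach from near or above 0 over the shallower library to far below 0 over the deeper one. Ratios with a value of 0 are left out.

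*Cdx2* and *Nkx1-2* were lower on day 3 than on day 2 within each of the 3 KO lines, as far as values from separate tables can be set side by side. *Cdx2* stood at 3.65 FPKM on day 2 and 0.439 on day 3 in the *Eomes* KO, at 3.76 and 0.498 in the *T* KO, and at 3.66 and 1.96 in the dKO. *Nkx1-2* stood at 9.89 and 2.52 in the *Eomes* KO, at 16.4 and 2.30 in the *T* KO, and at 7.86 and 4.10 in the dKO. *Gbx2* in the dKO (2.99 and 2.95) and *Cdx1* in the dKO (1.38 and 1.44) were near level. *Gbx2* stood at 4.02 and 1.56 in the *Eomes* KO and at 4.52 and 3.72 in the *T* KO, where the counting intervals overlapped. *Cdx1* stood at 1.03 and 0.538 in the *Eomes* KO and at 0.789 and 0.504 in the *T* KO, with overlapping intervals in both lines. In each of *Cdx1*, *Cdx2*, *Cdx4* and *Nkx1-2* the dKO had the highest day 3 value of the 3 KO lines.

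*T*, *Msgn1*, *Evx1* and *Wnt3*, posterior genes with like levels in both WT libraries, stood below both of them in the KO lines on day 3. The ligand gene *Fgf4*, also alike in both WT libraries (2.89 and 3.73), stood above both in each line (4.00, 7.10 and 5.95). *T* was at 364 and 304 FPKM in the WT libraries and at 4.46, 3.00 and 1.93 in the *Eomes*, *T* and double KO lines, and *Msgn1*, a factor of presomitic mesoderm, was at 27.1 and 18.0 in WT and had 0 in all 3 lines. *Evx1* was at 5.90 and 4.37 in WT and at 0.0854, 0.372 and 0.326 in the lines, and *Wnt3*, the ligand that starts the primitive streak, was at 30.5 and 21.7 in WT and at 3.00, 7.47 and 9.72. Of 5 tested transcription factors of that list with solved libraries, 4, 3 and 5 stood over 2-fold below both WT libraries. *T*, which is counted in each line, is itself the deleted gene in the *T* KO and dKO. The factors that split between the WT libraries as the members did lay near or between them in some lines, with *Tbx6* at 1.42 and 0.116 in WT, 0.143 in the *Eomes* KO, 0.109 in the *T* KO and 0 in the dKO. *Sp5* was at 23.9 and 2.45 in WT, 0.273 in the *Eomes* KO, 3.01 in the *T* KO and 0.613 in the dKO. *Hoxb1*, the gene most like *Cdx2* over the 14 conditions on log2(FPKM + 1) (r = 0.887), was at 4.78 and 0.844 in the WT libraries. It was below both in the *Eomes* KO (0.296) and *T* KO (0.373), and between them in the dKO (1.28). Summed short RNA was 2.51% of the WT total on day 3 and 2.05%, 5.09% and 7.88% in the 3 lines, and its part was not tested.

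**Figure D5:**
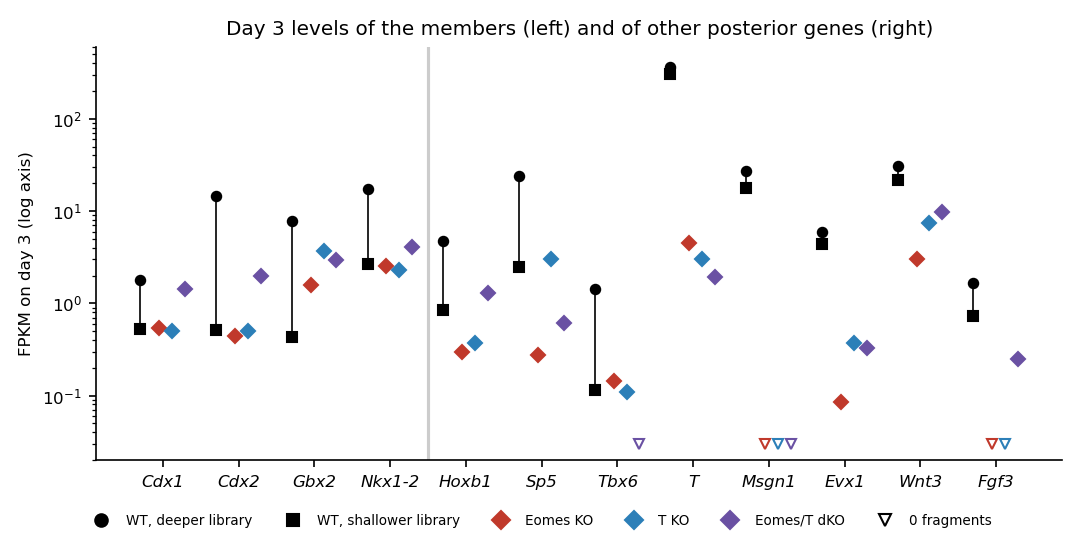
FPKM on day 3 (log axis) of 4 members (left of the line) and of other posterior genes (right), with black symbols for the WT libraries joined by a line, diamonds for the KO lines and open triangles for 0 fragments. The KO lines lie within or next to the WT range for *Cdx1*, *Cdx2*, *Gbx2* and *Nkx1-2* and below both WT libraries for *T*, *Msgn1*, *Evx1*, *Wnt3* and *Fgf3*.

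*Smad4* is the common partner of Bmp- and Nodal-activated Smads. Without it, *Cdx2* and *Nkx1-2* were lower on both days than in WT cells of the same line. Against these WT cells *Gbx2* was higher on day 1 and slightly lower on day 2. On day 1 *Cdx2* had 69 fragments in WT and 3 in KO (1.36 and 0.0586 FPKM), a 23.3-fold difference with a counting interval of 7.63 to 116. *Nkx1-2* had 57 and 18 fragments (1.27 and 0.396 FPKM), 3.20-fold lower in KO (interval 1.86 to 5.78). *Cdx1* had 3 and 0 fragments and *Cdx4* 7 and 0. With a floor of 3 fragments in place of the 0, *Cdx4* was 2.36-fold lower in KO, which is not a counting limit. Its counting intervals overlapped (0.0747 to 0.383 FPKM in WT, 0 to 0.0968 in KO). *Gbx2* had 68 fragments in WT and 233 in KO (1.35 and 4.59 FPKM), 3.39-fold higher in KO (interval 2.58 to 4.51). Trophoblast markers were lower with *Cdx2*, with 4 of 5 tested called lower and summed FPKM of 27.2 in WT and 13.9 in KO, and their part was not tested. By the study's rule 1 member was called higher and 2 lower, where 2.36% and 2.41% of 11232 genes were.

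On day 2 *Nkx1-2* had 467 fragments in WT and 25 in *Smad4* KO cells (6.97 and 0.380 FPKM), 18.3-fold lower in KO with a counting interval of 12.3 to 28.6. *Cdx2* had 48 and 5 fragments (9.42-fold lower, interval 3.77 to 30.3), *Cdx1* 22 and 5 (4.32-fold lower, interval 1.59 to 14.6) and *Cdx4* 19 and 8 (2.33-fold lower, with an interval of 0.974 to 6.15 that includes 1). *Gbx2* had 109 and 77 fragments (1.46 and 1.05 FPKM, 1.39-fold lower in KO, interval 1.03 to 1.88). The study's rule called *Nkx1-2* alone, where 3.21% of 10999 genes were called lower, as the Cdx genes did not reach FPKM 1. Other posterior genes were lower too, with 5 of 6 tested transcription factors called lower, among them *T* (26.6 in WT, 0.891 in KO) and *Evx1* (4.25 and 0.0101), and 5 of 7 Wnt and Fgf ligands, among them *Fgf8* (19.8 and 0.154) and *Wnt8a* (37.8 and 0.419). Of 4 tested trophoblast markers 3 were called lower, and their summed FPKM was 19.6 in WT and 5.96 in KO. The neural genes *Sox1* (0.302 and 3.58) and *Pax6* (0.378 and 10.4) and the anterior gene *Otx2* (15.3 and 54.2) were higher in KO. On day 1, where *Gbx2* was higher in KO, 3 of 10 tested naive pluripotency genes were called lower and none higher, with a median log2 ratio of −0.57. *Socs3* of that list went the way of *Gbx2* on day 1 (1.85 in WT and 2.81 in KO) without being called. Neither WT nor KO cells of this line have a second library. The WT cells of both lines differed in *Nkx1-2* on day 2 by 1.76 on the log2 scale and in *Gbx2* by 1.72, higher in the *Smad4* line, where the robust SD among the 500 genes nearest in level was 0.40 and 0.64. On day 1 they differed by 1.35 in *Cdx2* and 1.55 in *Nkx1-2* (robust SD 0.82 and 0.84). Set beside F1G4 WT cells, across tables, *Gbx2* on day 2 was higher in the *Smad4* KO (1.05 against 0.442 FPKM). *Nkx1-2* in the *Smad4* KO on day 1 (0.396) lay between the F1G4 WT libraries (0.102 and 0.765).

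Over all 14 conditions, *Cdx2* ranged from 0 fragments in the deeper ES library and 0.0586 FPKM in *Smad4* KO cells on day 1 to 14.1 in the deeper WT day 3 library, and its next highest values were the day 2 *Eomes* KO, *T* KO and dKO libraries, which do not differ beyond counting error. *Nkx1-2* was highest in the deeper WT day 3 library (16.8) and in the *T* KO on day 2 (16.4), with overlapping intervals, and lowest in ES cells. *Gbx2* was highest in ES cells, and the next values were 7.47 in the deeper WT day 3 library, 4.59 in *Smad4* KO cells on day 1 and 4.52 and 4.02 in *T* KO and *Eomes* KO cells on day 2. *Cdx1* reached 1 FPKM in the deeper WT day 3 library (1.71), the dKO on both days and the *Eomes* KO on day 2. *Cdx4* did not reach 1 FPKM in any library.

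Across the 14 conditions, on the scale of log2(FPKM + 1) and among 12590 genes with FPKM of at least 1 in some condition, *Cdx1*, *Cdx2* and *Nkx1-2* were alike (r = 0.803 for *Cdx1* and *Cdx2*, 0.821 for *Cdx1* and *Nkx1-2*, and 0.842 for *Cdx2* and *Nkx1-2*), and *Gbx2* was not like them (r = 0.0513 to 0.189). These conditions share WT libraries and the WT day 3 average, so the values describe the columns only. Among the genes most like *Cdx1* were *Hoxb2* (r = 0.960), *Camk2n1* (0.957), *Hmgn2* (0.912) and *Mcfd2* (0.909). After *Hoxb1* and *Nkx1-2*, *Cdx2* was most like *Dusp5* (0.837), *Grrp1* (0.826) and *Msx1* (0.823). *Nkx1-2* was most like *Ism2* (0.933), *Relt* (0.930), *Map3k15* (0.927), *Sp8* (0.926) and *Tnfrsf19* (0.920), and *Gbx2* most like *Ankle2* (0.807), *Upp1* (0.807), *Smg8* (0.785), *Socs3* (0.767) and *Nipsnap3b* (0.759).

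*Cdx1* lies at 18:61018862-61036199 (GRCm38, minus strand, 3 exons) and has 1 curated RefSeq transcript of 1750 bases. Most genes next to the members were silent or followed another course. *Pdx1*, 25051 bases from *Cdx2*, stayed at or below 0.166 FPKM in all conditions, and *Urad*, on its other side, was listed at 0 in each. *Slc6a7*, 4445 bases from *Cdx1*, stayed at or below 0.265, and *Pdgfrb*, 8927 bases away, was highest in the *Eomes* KO on day 3 (5.81), where *Cdx1* was at 0.538. *Oat* and *Lhpp* beside *Nkx1-2* were at 101 and 16.2 in *Smad4* line WT cells on day 2 and at 52.3 and 6.30 in their KO, in the direction of *Nkx1-2*. *Chic1* beside *Cdx4* ranged from 2.14 to 5.14, and *Agap1* beside *Gbx2* from 3.93 to 9.89.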

How the data were processed

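RNA-seq of 18 samples was analysed. The deposited FPKM were computed by the authors with Cuffdiff 2.2.1 on the refSeq annotation without effective length correction, from strand-specific ScriptSeq libraries made from total RNA, trimmed with cutadapt 2.9 and aligned to mm10 (GRCm38) with HISAT2 2.1.0 (versions from the submitters' processing notes). Libraries were amplified by PCR without molecular identifiers. The 9 tables used give 1 column per condition, and ratios were taken within a table except where stated.

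Step sizes were fitted on genes with 1 curated RefSeq transcript (GRCm38), and pairs of whole counts were accepted where exactly 1 pair matched the 6 printed digits in every table of that stage. Decoding was tested on simulated tables. Intervals are exact Poisson limits, and those of a ratio exact binomial limits, at 95%. Genes were called by the study's rule. List medians use log2(FPKM + 0.1). Python 3.11.15, numpy, pandas and scipy were used.

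The members, lists and similar genes were chosen with earlier results of these data known. Named genes were the members, *Smad4*, *Eomes* and *T*, the 5 genes most like each member, neighbors on each side, and up to 4 genes of each list with the largest or smallest log2 ratio or the highest FPKM. Genes of the lists outside that rule, among them those named beside the split of the WT day 3 libraries, *Axin2*, *Mesp1* and *Wnt3*, were chosen after their values were seen, as were the use of single WT libraries and the comparison of short RNAs. Alternatives were another pseudocount, FPKM minimum, scaling, fold or WT line. ATAC-seq and ChIP-seq samples of the series were not analysed here, and some results on other genes are not reported here.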

Additional observations from a re-analysis of the deposited data

Results flagged for a closer look

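*Cdx2* and *Nkx1-2* stood above both WT libraries on day 2 and below both on day 3 in the *Eomes* KO and the *T* KO, a difference between days that was not tested. In the *Eomes* KO *Cdx2* was 4.31 times the higher WT library on day 2 and 0.845 times the lower one on day 3, and *Nkx1-2* was 3.69 and 0.933 times. In the *T* KO *Cdx2* was 4.27 and 0.997 times and *Nkx1-2* 5.87 and 0.887 times. The day 3 values lay inside the counting interval of the lower WT library in each case.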

How the results depend on the processing

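No paired analysis was possible because each deposited column holds 1 condition and the replicate numbers of the recovered WT libraries are not known. The number of members called moved by over 1.5 times as follows. Without an FPKM minimum it was 5 instead of 3 for *Smad4* KO on day 1, 4 instead of 1 on day 2, 5 instead of 1 for WT day 1 against ES cells and 3 instead of 1 for WT day 2 against day 1. With FPKM above 5 it was 0 for *Smad4* KO on day 1 and for WT day 2 against day 1, 1 for each of the 3 lines lacking *Eomes*, *T* or both on day 2, 2 for the *Eomes* KO on day 3 and 2 for WT day 3 against day 2. With a log2 ratio past 2 it was 1 for *Smad4* KO on day 1 and for the *Eomes* KO on day 3, and 0 for the dKO on day 3. With TPM it was 2 for *Smad4* KO on day 2 and for WT day 1 against ES cells. With a pseudocount of 1 it was 2 for the *Eomes* KO on day 3. With the WT column of the F1G4 line it was 1 for *Smad4* KO on day 1 and 2 on day 2, where *Gbx2* was called higher. In the other 70 cases it stayed within 1.5 times.

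With the WT libraries used singly, chosen after seeing the data, the number of members called ran from 1 to 4 for the *Eomes* KO on day 3, from 1 to 4 for the *T* KO on day 3, from 0 to 4 for WT day 3 against day 2 and from 2 to 4 for WT day 3 against ES cells, the lowest in each case from the shallower day 3 library. Between the deeper and the shallower library as reference, log2 ratios on day 3 ran from −1.72 to 0.0407 for *Cdx1* and −2.31 to 1.86 for *Gbx2* in the *Eomes* KO, from −1.77 to 0.00202 for *Cdx1* in the *T* KO, and from −2.90 to 1.92 for *Cdx2* and −2.08 to 0.61 for *Nkx1-2* in the dKO. For WT day 3 against day 2 they ran from 4.51 to −0.32 for *Cdx2* and 4.08 to −0.11 for *Gbx2*. No other pseudocount, minimum, scaling, fold or WT line turned the direction of a called member. Of the 5 genes most like each member, fewer than 4 remained in 6 of 8 lists made with a pseudocount of 0.1 or with ranks. *Hoxb1* for *Cdx2* and *Socs3* for *Gbx2* were in neither of those lists. With 0 to 30 fragments behind most values of *Cdx4* and *Cdx1*, depth limits these genes most.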

Other observations

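In *Smad4* KO cells on day 2, the retinoic acid genes *Cyp26a1* (3.20 against 0.398 FPKM in WT) and *Crabp2* (91.9 against 23.4) were higher and *Dhrs3* (0.977 against 3.29) was lower. On day 3, 9 of 11 tested Wnt and Fgf ligands were called lower in the *Eomes* KO, 6 of 11 in the *T* KO and 7 of 12 in the dKO, where 9.01%, 3.92% and 5.53% of all tested genes were. *Fgf4* and *Fgf15* were called higher in the *T* KO, and *Wnt11* and *Fgf15* in the dKO. Of 10 Wnt target and feedback genes, 6, 7 and 6 were called lower, and *Dkk1* was called higher in the dKO. These day 3 calls rest on the WT average. Only 3 of the ligands were solved, and 2 of them stood over 2-fold below both WT libraries in each line. Of the target genes only *Sp5* was solved, over 2-fold below both in the *Eomes* KO and dKO but not in the *T* KO. Of all solved genes, 6.62%, 2.73% and 3.92% were over 2-fold below both in the 3 lines. Neural genes were called higher in 4 of 6 tested in the *Eomes* KO on day 2, 3 of 5 in the *T* KO and 3 of 6 in the dKO. Of the anterior genes 1 was called higher in the *Eomes* KO and 1 in the dKO on day 2, and none in the *T* KO. Definitive endoderm and gut markers had summed FPKM of 3.22 in WT and 4.45 in the *Eomes* KO on day 2, and 6.09 and 1.70 on day 3. Feeder fibroblast markers summed to 2.97 in WT and 2.59 in the *Eomes* KO on day 2, and to 2.11 and 4.48 on day 3. Trophoblast markers, of which *Krt7* holds most of the FPKM on day 3, summed to 68.0 in WT and 94.2 in the *Eomes* KO on that day. On day 2 they summed to 21.2 and 12.2.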
